A study of Rattus norvegicus with 40 samples.

Results

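The 9 genes described here code for the liver enzymes that break down the aromatic amino acids tyrosine and tryptophan. They were chosen by name, and all 9 were found among the 17337 genes counted in each library: Tat, Hpd, Hgd and Fah on the tyrosine route, and Tdo2, Kmo, Kynu, Haao and Aadat on the tryptophan route. The livers came from male Fischer 344 rats in which hepatocellular carcinoma (HCC) was induced with diethylnitrosamine (DEN), a carcinogen that hepatocytes activate. From an age of 7 weeks, rats received 50 mg/kg DEN in olive oil once a week by intraperitoneal injection, and were killed after 8 weeks of injections, after 14 weeks, or at 20 weeks, which was 14 weeks of injections followed by 6 weeks without. Rats of the same age that received no DEN were killed at each of these times. Each of the 8 groups held 4 rats: no DEN liver at 8, 14 and 20 weeks, non-tumor (NT) liver of DEN rats at 8, 14 and 20 weeks, and tumor nodules of DEN rats at 14 and 20 weeks. The nodules and the NT liver of 1 time came from the same 4 rats, and each of these rats gave 2 nodules, whose counts were added so that a rat entered once. NT liver was therefore liver that had received the carcinogen, not healthy tissue, and the only liver without DEN came from other rats. The rats' labels start with F or H: 4 DEN rats carry an F (F09 and F10 at 8 weeks, F06 at 14 weeks, F03 at 20 weeks), the other DEN rats and all no DEN rats carry an H, and the labels do not say what the letter stands for.

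Between 20528515 and 160622633 read pairs were counted on genes per library, with a median of 30477421, so that 1 CPM (counts scaled to library size) stood for 30.5 read pairs at the median depth. The deepest library, NT liver of rat H26 at 20 weeks, had 4.08 times the pairs of the next. All 13 hepatocyte markers looked up were detected, which is what liver tissue should show. Levels are given as CPM scaled by the trimmed mean of M-values (TMM) over the 32 values of rat and tissue. CPM is not corrected for transcript length, so levels were compared between groups for a gene and not between genes. A gene is called higher or lower where its log2 fold change was 0.5 or more in either direction and edgeR's quasi-likelihood test gave an adjusted p (Benjamini-Hochberg, over all genes tested) of 0.05 or less. Errors of fold changes are standard errors (SE), and errors of levels are SD with n = 4 rats.

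Both routes are mainly carried by hepatocytes. On the tyrosine route, tyrosine aminotransferase (Tat) removes the amino group, Hpd turns the resulting keto acid into homogentisate, Hgd opens its ring, and fumarylacetoacetase (Fah) splits the last product into fumarate and acetoacetate. Inherited loss of Fah causes a form of tyrosinemia that damages the liver. On the tryptophan route, tryptophan 2,3-dioxygenase (Tdo2) opens the first ring and leads to kynurenine, which kynurenine monooxygenase (Kmo) hydroxylates, kynureninase (Kynu) cleaves and Haao converts into the precursor of quinolinate, from which NAD can be made. Aadat is an aminotransferase that takes kynurenine off this line into kynurenic acid. Tat and Tdo2 are textbook examples of liver enzymes induced by glucocorticoid hormones.

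All 9 genes were below the no DEN level of the same week in each of the 5 comparisons with no DEN liver, but the number called differed with time. At 8 weeks 1 of 9 genes was called lower, against 5.21% of the genes tested (9.15% without rat H17, when 2 of 9 were called). At 14 weeks 8 of 9 were called lower in NT liver, against 9.85%, and at 20 weeks 2 of 9, against 3.82%. In the nodules 9 of 9 were called lower at 14 weeks and 9 of 9 at 20 weeks, against 15.2% of the genes tested at either time. None was called higher. The median log2 fold change of the 9 genes was -0.30 in NT liver at 8 weeks, -0.71 at 14 weeks and -0.44 at 20 weeks, and it was -0.96 and -1.0 in the nodules, while the median over all genes tested lay between -0.01 and 0.02 in these comparisons. NT liver and nodules of a week were set against the same no DEN rats, so these medians are values side by side and not independent results. Genes whose groups did not overlap, with every DEN rat below every no DEN rat, numbered 6 in NT liver after 8 weeks, all 9 after 14 weeks and 7 at 20 weeks, and all 9 in the nodules of either time. The background for this count was 14.2%, 25.7% and 13.1% of genes in NT liver, and 23.7% and 22.3% in the nodules.

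**Figure D1:**
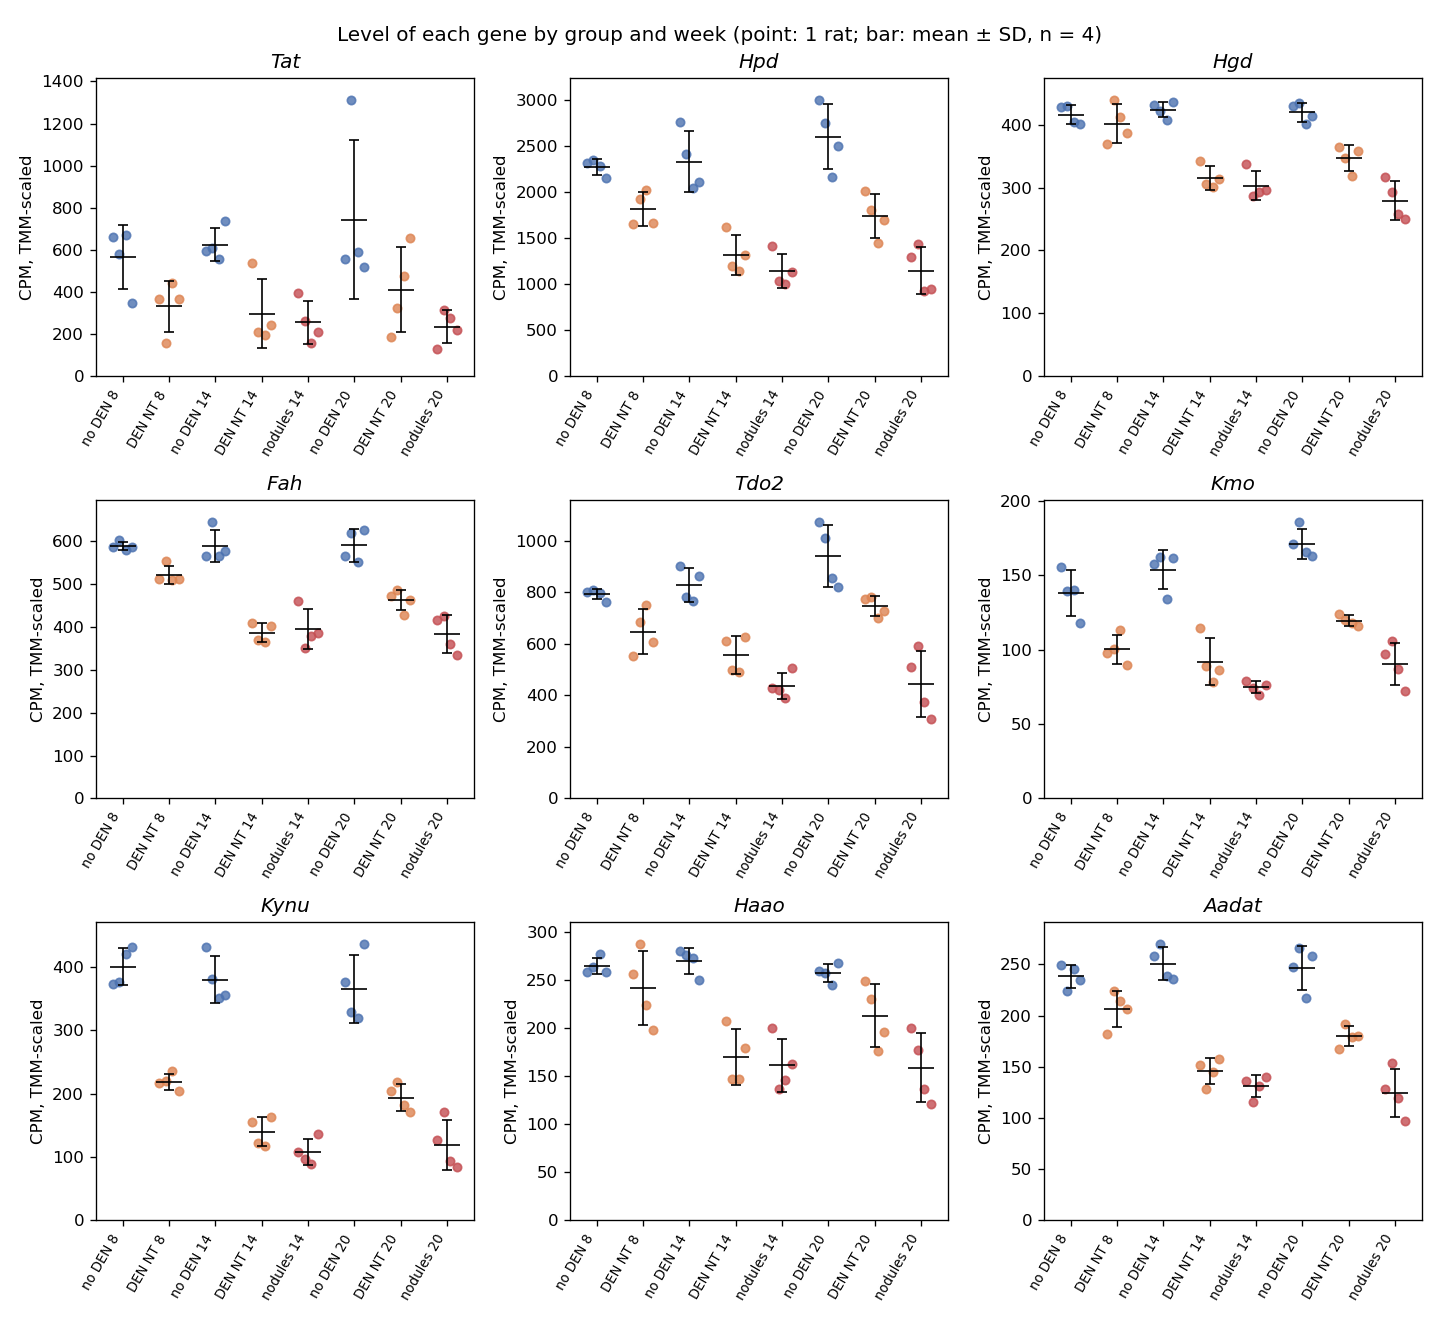
TMM-scaled CPM (linear axis from 0) of the 9 genes in the 8 groups; points are rats, bars are mean ± SD of 4 rats, blue is no DEN liver, orange NT liver and red nodules. At 14 and 20 weeks the nodules of every gene sit below all no DEN rats of the same week, and Tat scatters widely, from 198 to 540 CPM in NT liver at 14 weeks.

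Kynu, the enzyme that cleaves kynurenine and 3-hydroxykynurenine, was the only one called at 8 weeks and was called lower in all 5 comparisons. In no DEN liver at 8 weeks the 4 rats had 373, 376, 420 and 431 CPM, and in NT liver after 8 weeks of DEN they had 205, 216, 220 and 235 CPM. The groups did not overlap, and the log2 fold change was -0.87 ± 0.08 (edgeR adjusted p = 4.59e-05). At 14 weeks the no DEN rats had 350, 356, 380 and 431 CPM against 118, 122, 156 and 162 CPM in NT liver and 88.8, 97.4, 109 and 136 CPM in the nodules. Kynu in NT liver thus stood at 36.8% of the no DEN mean, with a log2 fold change of -1.41 ± 0.12 (edgeR adjusted p = 1.01e-05). The nodules at 14 weeks stood at 28.4%, with -1.84 ± 0.15 (edgeR adjusted p = 2.41e-05). At 20 weeks, 6 weeks after the last injection, NT liver had 171, 181, 203 and 218 CPM and the nodules 83.6, 93.5, 126 and 171 CPM, all below the 319, 329, 376 and 435 CPM of the no DEN rats. The log2 fold changes were -0.90 ± 0.11 in NT liver and -1.63 ± 0.22 in the nodules (edgeR adjusted p = 0.000626 and 0.000369).

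Tat, the entry step of tyrosine breakdown, fell in the nodules at both times and varied widely from rat to rat. The no DEN rats had 557, 596, 611 and 736 CPM at 14 weeks and 519, 556, 592 and 1309 CPM at 20 weeks, the last being rat H14. In NT liver the values were 198, 209, 244 and 540 CPM at 14 weeks, the highest being rat F06, and 186, 324, 474 and 656 CPM at 20 weeks. NT liver therefore overlapped no DEN liver at 20 weeks but not at 14 weeks. The nodules had 161, 212, 262 and 398 CPM at 14 weeks and 132, 219, 278 and 315 CPM at 20 weeks, below every no DEN rat of the same week. Tat was called lower in NT liver at 14 weeks (log2 fold change -1.04 ± 0.32, edgeR adjusted p = 0.0257) and in the nodules at 14 weeks (-1.29 ± 0.25, adjusted p = 0.00266) and 20 weeks (-1.67 ± 0.35, adjusted p = 0.00287). The call in NT liver at 14 weeks was lost when rat H12, H21, H22 or H23 was left out, with values from -0.88 to -0.95 and adjusted p between 0.0614 and 0.0679. Without rat F06 the value was -1.51 (edgeR adjusted p = 4.99e-07). At 8 weeks (-0.76 ± 0.31, edgeR adjusted p = 0.0816) and in NT liver at 20 weeks (-0.83 ± 0.46, adjusted p = 0.217) Tat did not pass. With 1 rat left out the 20-week value ran from -1.17 to -0.42 and was never called. Without the no DEN rat H08, which had 350 CPM at 8 weeks, the 8-week value became -0.94 with an edgeR adjusted p of 0.0332. Together with Kmo at -0.54 this made 3 called genes in place of 1, against 622 of 10952 genes called lower. Without rat H17 there were 2, against 9.15%. The coefficient of variation of Tat within a group ran from 12.3% to 54.7%.

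Hpd, which makes homogentisate, and Tdo2, the first enzyme of the tryptophan route, fell less than Kynu in NT liver and about 2-fold in the nodules. Hpd in no DEN liver at 20 weeks was at 2165, 2507, 2749 and 2996 CPM, against 1445, 1696, 1801 and 2016 CPM in NT liver and 926, 947, 1293 and 1434 CPM in the nodules. The 3 sets of rats did not overlap, and the log2 fold change from no DEN was -0.56 ± 0.13 in NT liver (edgeR adjusted p = 0.00981) and -1.19 ± 0.19 in the nodules (adjusted p = 0.000729). The NT call at 20 weeks was lost without rat H26, the deepest library, at -0.48. At 14 weeks Hpd fell by 0.79 ± 0.14 in NT liver (edgeR adjusted p = 0.00069) and by 1.05 ± 0.15 in the nodules on the log2 scale (adjusted p = 0.000423). Tdo2 in no DEN liver at 20 weeks was at 821, 854, 1012 and 1071 CPM, against 701, 727, 776 and 780 CPM in NT liver and 307, 374, 510 and 590 CPM in the nodules. All 3 sets were again apart, but the NT difference of -0.31 ± 0.10 was under the limit of 0.5, whereas the nodules were called at -1.09 ± 0.21 (edgeR adjusted p = 0.002). At 14 weeks Tdo2 was called in NT liver (-0.54 ± 0.11, edgeR adjusted p = 0.00139) and in the nodules (-0.95 ± 0.11, adjusted p = 0.000142). The first of these calls was lost on its size, at -0.49, when rat H21 or H22 was left out.

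Kmo and Haao carry the kynurenine line on either side of Kynu. Kmo had 134, 158, 162 and 162 CPM in no DEN liver at 14 weeks, 78.1, 86.6, 88.7 and 114 CPM in NT liver and 69.5, 74.3, 76.1 and 79.1 CPM in the nodules. Both DEN groups lay below all no DEN rats and were called, at -0.71 ± 0.12 (edgeR adjusted p = 0.000483) and -1.06 ± 0.09 (adjusted p = 3.39e-05). At 20 weeks the nodules were called at -0.94 ± 0.13 (edgeR adjusted p = 0.000332), and NT liver, at -0.50 ± 0.07 (adjusted p = 0.00111), missed the limit of 0.5 before rounding, though its 4 rats (116 to 124 CPM) all lay below the no DEN rats (163 to 185 CPM). DESeq2, RLE scaling and several other settings put it past that limit, at -0.51 to -0.55. Without rat H15 a total of 4 of the 9 genes were called in NT liver at 20 weeks, against 464 of 11012 genes called lower. Haao was not called at 8 weeks, when NT liver had 198, 224, 256 and 287 CPM, which straddled the 259 to 277 CPM of the no DEN rats. It was called lower in NT liver at 14 weeks (-0.63 ± 0.11, edgeR adjusted p = 0.000693) and in the nodules at 14 weeks (-0.76 ± 0.13, adjusted p = 0.000981) and 20 weeks (-0.71 ± 0.16, adjusted p = 0.00395). In NT liver at 20 weeks Haao was at -0.26 ± 0.11 (edgeR adjusted p = 0.0981).

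Aadat, which draws kynurenine off into kynurenic acid, kept a narrow spread in no DEN liver, with 217 to 270 CPM over all 12 no DEN rats. NT liver had 182 to 224 CPM at 8 weeks, 129 to 158 CPM at 14 weeks and 168 to 192 CPM at 20 weeks, and the nodules had 116 to 140 CPM at 14 weeks and 97.2 to 154 CPM at 20 weeks. It was called in NT liver at 14 weeks (-0.75 ± 0.08, edgeR adjusted p = 3.91e-05) and in the nodules at both times (-0.96 ± 0.09 and -1.0 ± 0.15, adjusted p = 5.34e-05 and 0.00051). At 8 weeks (-0.21 ± 0.08) and in NT liver at 20 weeks (-0.44 ± 0.09) it was not called.

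Hgd and Fah, the steps that open the ring of homogentisate and release fumarate, changed least in the nodules. Hgd lay between 401 and 435 CPM in all 12 no DEN rats, at 368, 387, 412 and 438 CPM in NT liver at 8 weeks, and at 301, 305, 313 and 343 CPM in NT liver at 14 weeks. The last group was below every no DEN rat, but at -0.39 ± 0.07 (edgeR adjusted p = 0.000944) it did not reach the limit of 0.5, and Hgd was called only in the nodules, at -0.50 ± 0.08 at 14 weeks and -0.60 ± 0.11 at 20 weeks (adjusted p = 0.00111 and 0.00181). The 14-week call sat on the limit: RLE scaling, no filter on low counts, a fit of all 8 groups, nodule 2 alone, or leaving out rat H12, H21, H22 or H23 brought it to between -0.43 and -0.50 and ended it. Fah had 565, 566, 576 and 643 CPM in no DEN liver at 14 weeks, 365, 369, 401 and 409 CPM in NT liver and 351, 379, 386 and 461 CPM in the nodules. NT liver (-0.57 ± 0.08, edgeR adjusted p = 0.000185) and nodules (-0.60 ± 0.11, adjusted p = 0.00146) stood almost equally far below the no DEN rats. At 20 weeks Fah was called in the nodules (-0.64 ± 0.12, edgeR adjusted p = 0.00206) and not in NT liver (-0.33 ± 0.08).

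**Figure D2:**
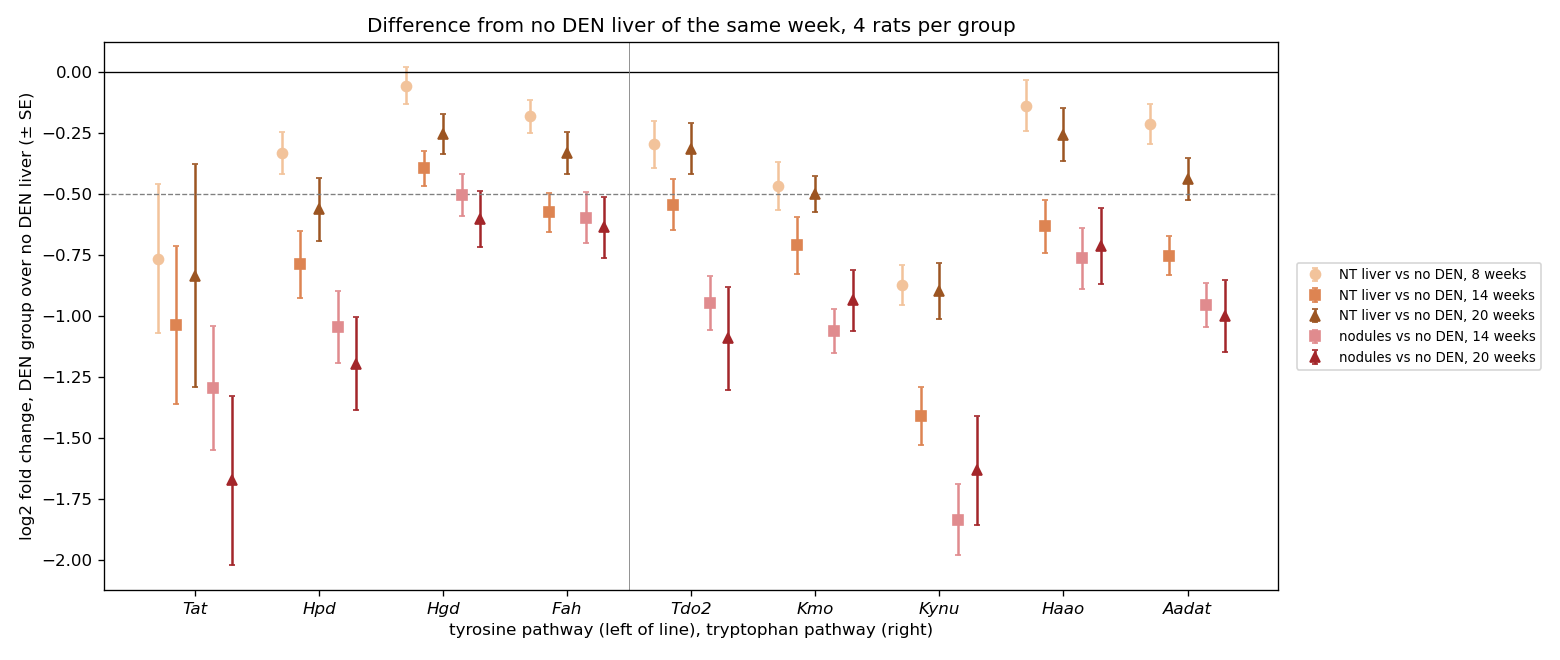
Log2 fold change over no DEN liver of the same week (vertical axis, ± SE, 4 rats per group) for each gene in NT liver at 8, 14 and 20 weeks and in nodules at 14 and 20 weeks; the dashed line marks -0.5. Every point lies below 0, Tat and Kynu reach furthest down in the nodules (-1.67 for Tat and -1.84 for Kynu), and in the nodules Hgd and Fah stay closest to 0.

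The 4 promoters below set Kynu and Tat, with the largest falls in the nodules, and Tdo2, the entry step of the tryptophan route, beside Hgd, the gene with the smallest fall. They are the 250 bases before the annotated start, read 5′ to 3′ on the gene's own strand, from RefSeq on the rat build GRCr8; the reads were aligned to rn6, so these positions belong to the reference and not to the count files. Kynu is chr3:48188036-48188285 (plus strand), Tat chr19:54856354-54856603 (plus strand), Tdo2 chr2:169585587-169585836 (minus strand) and Hgd chr11:76643768-76644017 (minus strand). Capitals mark matches, on either strand, to one of 7 motifs: the TATA box (TATAAA), the CCAAT box (CCAAT), an HNF1 half-site (GTTAAT), an HNF4 half-site (AGGTCA), a glucocorticoid receptor half-site (TGTTCT), the C/EBP motif (TTGCNNAA) and the forkhead motif (TGTTTAC).
Kynu: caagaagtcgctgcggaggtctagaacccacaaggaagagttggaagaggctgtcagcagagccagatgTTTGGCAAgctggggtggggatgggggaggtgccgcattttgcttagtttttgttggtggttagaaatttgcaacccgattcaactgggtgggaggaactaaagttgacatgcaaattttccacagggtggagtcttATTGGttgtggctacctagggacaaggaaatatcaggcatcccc
Tat: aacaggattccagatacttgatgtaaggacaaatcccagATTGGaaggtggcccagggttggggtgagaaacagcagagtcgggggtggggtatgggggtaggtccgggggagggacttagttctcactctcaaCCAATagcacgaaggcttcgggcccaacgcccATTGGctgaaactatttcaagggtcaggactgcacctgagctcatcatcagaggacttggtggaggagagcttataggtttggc
Tdo2: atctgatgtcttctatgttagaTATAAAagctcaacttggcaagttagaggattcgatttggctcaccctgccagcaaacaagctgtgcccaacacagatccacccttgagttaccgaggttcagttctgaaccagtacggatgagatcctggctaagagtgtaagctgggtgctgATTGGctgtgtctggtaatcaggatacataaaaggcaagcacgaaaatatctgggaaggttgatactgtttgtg
Hgd: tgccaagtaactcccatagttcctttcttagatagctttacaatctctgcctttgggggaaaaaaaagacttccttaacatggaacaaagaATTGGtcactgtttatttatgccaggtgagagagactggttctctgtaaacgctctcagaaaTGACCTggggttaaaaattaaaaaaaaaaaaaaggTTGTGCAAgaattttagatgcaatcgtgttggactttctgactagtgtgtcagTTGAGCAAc

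A CCAAT box was present in 6 of the 9 promoters, at 44 bases before the start in Kynu, at 211, 116 and 84 in Tat and at 74 in Tdo2, and 34.0% of the 33469 promoters of the same length held one. The HNF4 half-site was found in 4 of 9 (Hpd, Hgd, Haao and Aadat) against 14.1% of all promoters, and the C/EBP motif in 2 of 9 (Kynu and Hgd) against 9.22%. The TATA box was found in 1 of 9 against 12.9%, the HNF1 half-site in 1 of 9 (Hpd) against 6.45%, the glucocorticoid receptor half-site in 1 of 9 (Haao) against 17.5%, and the forkhead motif in 0 of 9 against 3.21%. The TATAAA of Tdo2 began 228 bases before the start. Hgd, the least changed gene, carried more matches (4) than Kynu (2), Tat (3) or Tdo2 (2), and Fah carried none of the 7. These are matches of letters in a short window and not binding sites.

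Whether the DEN effect in NT liver grew from 8 to 14 weeks was tested as an interaction of treatment and week. It was larger at 14 weeks for 4 of 9 genes, against 4.8% of genes with an adjusted p of at most 0.05 in that direction. Aadat changed by a further -0.54 ± 0.11 on the log2 scale (edgeR adjusted p = 0.0107), Fah by -0.39 ± 0.10 (adjusted p = 0.0203), Kynu by -0.54 ± 0.14 (adjusted p = 0.0294) and Hgd by -0.34 ± 0.10 (adjusted p = 0.0409). The other 5 estimates were also below 0, from -0.50 for Haao (adjusted p = 0.0582) to -0.24 for Kmo (adjusted p = 0.34). In the same test 5 of 13 hepatocyte markers were called lower, with a median of -0.41 next to -0.39 for the 9 genes. Of 6 bile duct markers 3 were called higher, with a median of 1.69. Scaled to the hepatocyte markers, an alternative added after the data had been seen, 0 of 9 genes were called, against 0.847% of genes called lower. That scaling put the median of all genes at 0.43. The 4 calls were not all stable. With only H rats 7 of 9 passed, against 518 of 11400 genes called lower. DESeq2 called the same 4 and also Hpd (DESeq2 adjusted p = 0.0457) and Haao (0.0255), against 838 of 13988 genes called lower. With 1 rat left out between 2 (without H06, H09, H10, H21 or H22) and 6 (without F06) passed. The share of all genes called lower in those fits ran from 2.87% (without H07) to 9.2% (without H17). From 14 to 20 weeks, with injections stopped, the 9 estimates lay above 0, from 0.15 for Hgd to 0.52 for Kynu (95% interval 0.15 to 0.89, edgeR adjusted p = 0.151). The median of the 13 hepatocyte markers was 0.33 in this comparison. When the counts were scaled to those markers, the same added alternative, 6 of the 9 estimates lay below 0 (from -0.17 for Hgd to -0.05 for Tat) and Kynu was at 0.22. On the TMM scaling, leaving out rat H28 put Tat at -0.13. None of the 9 passed, against 0.738% of all genes, although 4 had an unadjusted p of at most 0.05, and DESeq2 also called 0 of 9. In the nodules a difference between the effects at 20 and 14 weeks was called for 0 of 9 genes by edgeR and by DESeq2, with 0 of 9 at an unadjusted p of at most 0.05, a background of 0.0862%, and estimates from -0.39 ± 0.47 for Tat to 0.19 ± 0.28 for Kynu. With 1 rat left out Tat ran from -0.58 to 0.03 and Kynu from -0.05 to 0.33, so the sign of either was not fixed. In no DEN rats 0 of 9 genes were called from 8 to 14 weeks or from 14 to 20 weeks, where the background was 0.0% both times, 0 of 9 had an unadjusted p of at most 0.05, and DESeq2 called 0 of 9. The widest 95% interval for age was that of Tat from 14 to 20 weeks, -0.52 to 1.03.

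Nodules were then compared with the NT liver of the same rats. At 14 weeks the unpaired edgeR test called 0 of 9 genes against a background of 0.0%, with 3 of 9 at an unadjusted p of at most 0.05, and DESeq2 also called 0 of 9. Within rats, 7 of 9 genes (all but Tat and Fah) were lower in the nodules than in the NT liver of the same animal in all 4 rats, against 19.9% of all genes. The largest difference was Kynu at -0.40 ± 0.17 (edgeR adjusted p = 0.414), and Fah was level at 0.01 ± 0.11. At 20 weeks the same test again called 0 of 9 (background 0.0%), but 8 of 9 had an unadjusted p of at most 0.05, and 9 of 9 genes were lower in the nodules in all 4 rats, against 22% of all genes. With the rat as a block, which takes out what nodule and NT liver of 1 animal share, 4 of 9 genes were called lower at 20 weeks, against 5.46% of genes. DESeq2 without a block also called 4, against 256 of 14151 genes called lower. The values with the block follow. Tdo2 was at -0.82 ± 0.14 (edgeR adjusted p with block = 0.00111), Kynu at -0.78 ± 0.11 (0.000415), Hpd at -0.64 ± 0.12 (0.00221) and Aadat at -0.57 ± 0.10 (0.00137). Haao (-0.47), Kmo (-0.44), Hgd (-0.35) and Fah (-0.30) passed the adjusted p of the blocked edgeR test, which was 0.00271, 0.00325, 0.0167 and 0.0371, but not the limit of 0.5. Tat passed the limit at -0.75 ± 0.25 but not the test (edgeR adjusted p with block = 0.0789). Without rat H25 the unpaired test called 3 of 9, Tdo2, Kynu and Aadat, against 1.64% of genes called lower. At 14 weeks the block gave 0 of 9 calls, also against 0.0%, and 5 of 9 were lower at an unadjusted p of at most 0.05 with the block, against 12.8% of genes. At 20 weeks 9 of 9 were, against 22.1%. Other genes also differed between nodule and NT liver at 20 weeks, with a median log2 difference of -0.33 for the hepatocyte markers, 0.98 for bile duct markers and 1.07 for proliferation markers, though none of these genes was called in the unpaired test. Scaled to the hepatocyte markers, the unpaired difference was -0.50 for Tdo2, -0.46 for Kynu, -0.33 for Hpd and -0.27 for Aadat. As in the unpaired test with TMM, 0 of 9 genes were called (smallest edgeR adjusted p 0.077, for Tdo2), against 0 of 11546 genes called lower. This scaling was not fitted with the rat as a block, so its count does not bear on the 4 blocked calls.

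Single nodules showed how uneven these differences were; their CPM were scaled over the 40 libraries. Kynu was below the NT liver of its rat in 8 of 8 nodules at each time, as were Kmo and Hpd, whereas Fah was below it in 3 of 8 nodules at 14 weeks and 7 of 8 at 20 weeks. The lowest median ratio over the 9 genes was that of nodule 2 of rat H28 at 20 weeks. There Tdo2 was at 177 CPM against 757 CPM in the NT liver (log2 ratio -2.09), Tat at 178 against 683 CPM (-1.94), and Kynu at 73.9 against 178 CPM (-1.27). Nodule 1 of the same rat had 508 CPM of Tdo2, so the 2 nodules of H28 differed by 1.52 on the log2 scale, the largest gap between nodules of a rat for any of the 9 genes. That median log2 ratio was -1.19 in nodule 2 of H28 and -0.57 in its nodule 1, and at the other end -0.02 in nodule 2 of rats H21 and H23 at 14 weeks. Within a rat the median gap between nodules for Kynu was 0.27 at 14 weeks and 0.40 at 20 weeks.

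**Figure D3:**
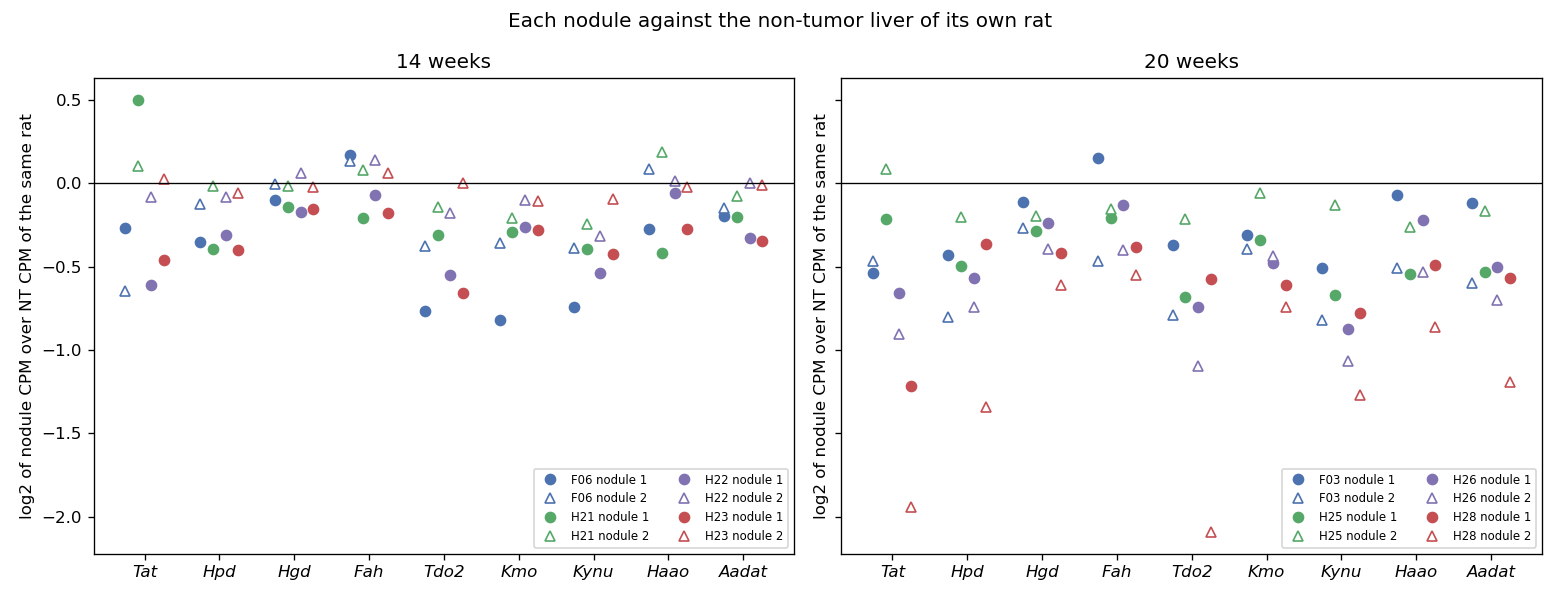
Log2 ratio of each nodule's CPM to the NT liver of its rat (vertical axis) for the 9 genes, at 14 weeks (left) and 20 weeks (right); filled circles are nodule 1, open triangles nodule 2, colors are rats. At 14 weeks the ratios gather between 0.50 and -0.82, and at 20 weeks the open red triangles of rat H28 reach -2.09 for Tdo2 and -1.94 for Tat.

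Most genes that mark hepatocytes fell along with these enzymes in NT liver at 14 weeks and in the nodules. Among 13 hepatocyte markers, 9 were called lower and 1 higher in NT liver at 14 weeks. At 8 weeks 2 were lower and 0 higher, and at 20 weeks 2 were lower and 1 was higher. The nodules had 10 lower and 1 higher at 14 weeks, and 9 lower and 1 higher at 20 weeks. Their median log2 fold change was -0.60 in NT liver at 14 weeks and -0.80 and -0.70 in the nodules, next to -0.71, -0.96 and -1.0 for the 9 enzymes. In NT liver at 8 and 20 weeks the marker median was -0.09 and -0.23, next to -0.30 and -0.44 for the enzymes. Their summed level was 308200 to 344964 CPM in no DEN liver at 14 weeks, 203639 to 252319 CPM in NT liver and 182044 to 214205 CPM in the nodules, and none of the 13 was at 0 in any library. The transthyretin gene Ttr (-0.85 ± 0.28 in the nodules at 20 weeks) and the liver transcription factor genes Hnf4a (-1.14 ± 0.13) and Cebpa (-1.08 ± 0.11) fell, while the apolipoprotein gene Apoa1 rose (1.31 ± 0.16). Markers of bile duct cells rose: 6 of 6 tested at 14 and 20 weeks in NT liver and nodules, with a summed level of 16.3 to 23.8 CPM in no DEN liver at 14 weeks, 39.6 to 88.6 CPM in NT liver and 66.7 to 117 CPM in the nodules, and 6 of the 7 in the files had counts in all 40 libraries. Among markers of other cells in the nodules at 20 weeks, 7 of 9 for stellate cells, 6 of 6 for proliferation, 5 of 14 for macrophages (with 1 lower), 4 of 8 for lymphocytes and 4 of 6 for endothelial cells were called higher. At 8 weeks, where Kynu alone was called, 8 of 9 for stellate cells, 6 of 6 for proliferation, 4 of 14 for macrophages (with 1 lower), 8 of 8 for lymphocytes, 5 of 6 for endothelial cells and 4 of 6 for bile duct cells were called higher. The share of all genes called higher was 16.5%, 22.8% and 14.3% in NT liver at 8, 14 and 20 weeks and 23.9% and 23.6% in the nodules. The share called lower was 5.21%, 9.85% and 3.82% in NT liver and 15.2% in the nodules at either time. In bulk tissue fewer hepatocytes and less RNA of a gene per hepatocyte cannot be told apart, and the part of cell make-up in the fall of the 9 enzymes was not tested.

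To show how the 9 genes stood relative to the hepatocyte markers, the counts were also scaled so that the geometric mean of the 13 markers was equal in all rats. With this scaling the median log2 fold change of all genes was 0.15, 0.56 and 0.26 in NT liver at 8, 14 and 20 weeks and 0.67 and 0.57 in the nodules. Kynu remained called in all 5 comparisons, at -0.72 (edgeR adjusted p = 0.000559), -0.88 (3.1e-05) and -0.66 (0.00205) in NT liver and at -1.18 (0.000106) and -1.12 (9.81e-05) in the nodules. Tat was called in the nodules at 14 weeks (-0.64, adjusted p = 0.0297) and 20 weeks (-1.10, adjusted p = 0.029), and Hpd (-0.67, adjusted p = 0.000975) and Tdo2 (-0.58, adjusted p = 0.00438) in the nodules at 20 weeks. Fah and Haao had values between -0.19 and 0.06 in the nodules and were not called in any of the 5 comparisons, and Hgd was at 0.16 and -0.06 in the nodules, all below the median of all genes in the same comparison. The genes called lower on this scale were 1 of 9 in NT liver at each of 8, 14 and 20 weeks, against 1.9%, 1.85% and 1.36% of all genes. In the nodules they were 2 of 9 at 14 weeks and 4 of 9 at 20 weeks, against 2.85% and 3.65%. For the growth of the effect from 8 to 14 weeks they were 0 of 9, against 0.847%.

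**Figure D4:**
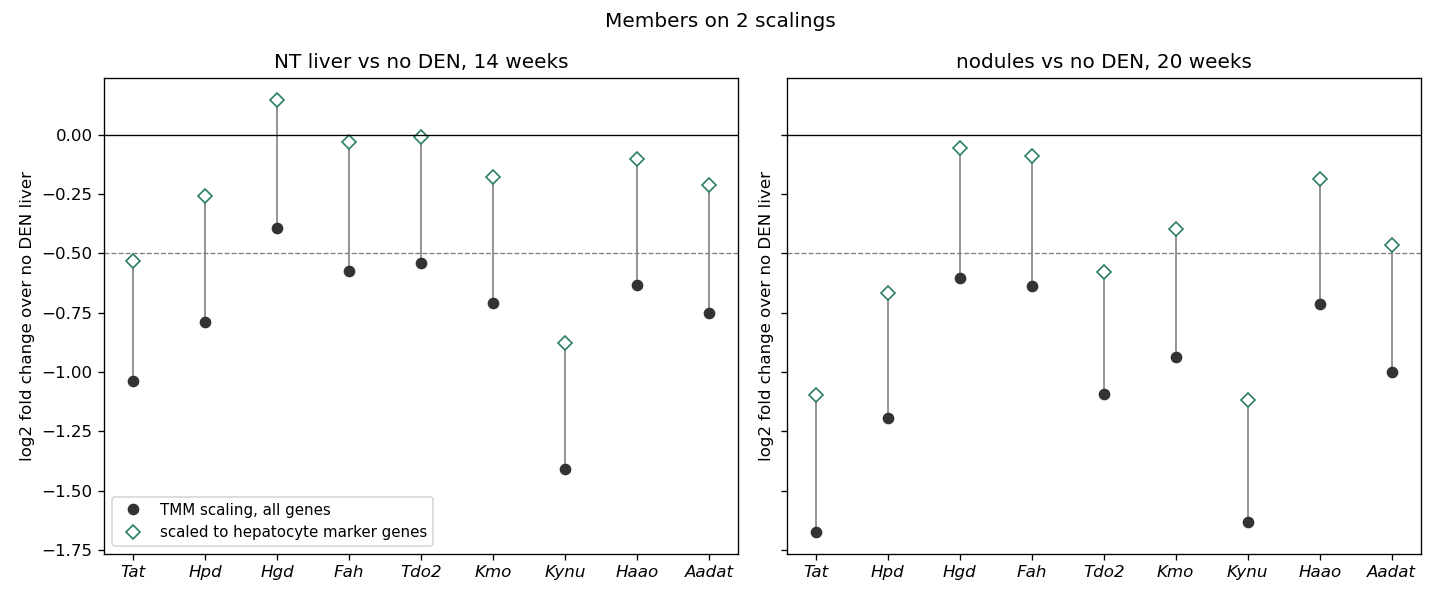
Log2 fold change over no DEN liver of the 9 genes with TMM scaling of all genes (filled circles) and scaled to the 13 hepatocyte markers (open diamonds), in NT liver at 14 weeks (left) and nodules at 20 weeks (right); the dashed line marks -0.5. Kynu stays below the line on both scalings in both panels, while Hgd, Fah and Haao move to between -0.19 and 0.15.

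The enzymes that feed or surround the tyrosine route were mixed. Of 12 other genes of phenylalanine and tyrosine use that were tested, 0 were called at 8 weeks, 3 lower and 1 higher in NT liver at 14 weeks, 0 in NT liver at 20 weeks, and 4 lower and 2 higher in the nodules at each time. Gstz1, the isomerase between Hgd and Fah, was at 365 ± 72.9 CPM in the nodules at 14 weeks against 735 ± 46.3 CPM in no DEN liver (log2 fold change -1.03 ± 0.14, edgeR adjusted p = 0.000381). Qdpr, which regenerates tetrahydrobiopterin, fell by 0.98 ± 0.11 on the log2 scale in the same comparison (edgeR adjusted p = 9.94e-05). Dnajc12, a co-chaperone of the aromatic amino acid hydroxylases, went the other way, from 22.9 ± 0.94 to 39.7 ± 10.5 CPM (0.77 ± 0.17, edgeR adjusted p = 0.00519). The median of the 12 was -0.28.

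Around the tryptophan route, 12 of 15 further genes found in the files were tested, and 3 were called lower at 8 weeks, 3 lower and 1 higher in NT liver at 14 weeks, 1 lower and 1 higher at 20 weeks, 6 lower and 1 higher in the nodules at 14 weeks and 8 lower and 1 higher at 20 weeks. In the nodules at 20 weeks Dhtkd1, which acts late in lysine and tryptophan breakdown, was at 193 ± 50.5 CPM against 424 ± 28.7 CPM (log2 fold change -1.15 ± 0.17, edgeR adjusted p = 0.000606), and Acmsd, which turns the product of Haao away from quinolinate, was at 6.31 ± 1.60 against 15.5 ± 4.41 CPM (-1.31 ± 0.24, adjusted p = 0.00157). Ccbl1, a kynurenine aminotransferase like Aadat, was at -1.11 ± 0.13. Aox1, an aldehyde oxidase that also oxidizes N-methylnicotinamide, rose from 628 ± 116 to 1795 ± 294 CPM (1.49 ± 0.17, edgeR adjusted p = 0.000141). Ido1, which opens tryptophan in other tissues, had at most 1 count in any of the 40 libraries.

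Transporters that carry aromatic amino acids across the plasma membrane split in both directions. Of 7 tested, 3 were called lower and 3 higher in the nodules at 14 and at 20 weeks, and 3 lower and 4 higher in NT liver at 14 weeks. Slc16a10, the aromatic amino acid carrier TAT1, fell to 4.54 ± 0.29 CPM in the nodules at 14 weeks from 14.2 ± 3.80 CPM (log2 fold change -1.66 ± 0.19, edgeR adjusted p = 0.000147), and was already called at 8 weeks (-1.06 ± 0.26). Slc43a1 was at -1.52 ± 0.13 in the nodules at 14 weeks. Slc7a5, the large neutral amino acid exchanger LAT1, rose from 3.58 ± 0.52 to 12.4 ± 0.77 CPM in the same comparison (1.77 ± 0.13, edgeR adjusted p = 1.68e-05), and at 20 weeks, at 0.87 ± 0.35, it did not pass (adjusted p = 0.0592).

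**Figure D5:**
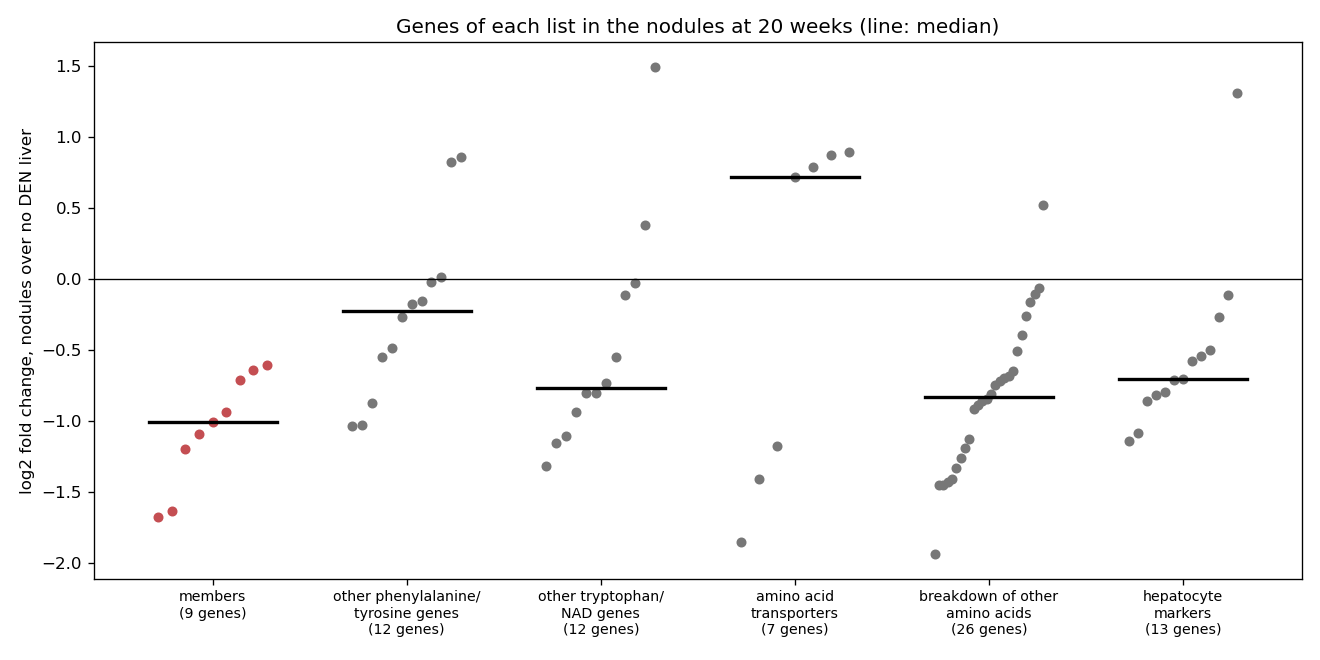
Log2 fold change in the nodules at 20 weeks over no DEN liver (vertical axis) for the 9 enzymes (red) and the tested genes of 5 other lists (grey), 1 point per gene, with the median of each list as a line. All 9 enzymes lie between -0.60 and -1.67, while each of the other lists holds genes on both sides of 0.

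Of the 9 genes, Tat varied least with the others from rat to rat. With each group's mean taken out, the median correlation of log2 CPM with the other 8 genes over the 32 values was 0.11 for Tat and between 0.55 (Kmo) and 0.72 (Hpd) for the other 8. These values share libraries and depth and are given as a description. Over the same 32 values with the group means left in, the gene most like Kynu was the carbohydrate kinase gene Fggy (Pearson r = 0.98 among 10067 genes), followed by the gap junction gene Gjb1 and the liver glycogen phosphorylase gene Pygl (both 0.98), and the gene most like Tat was the lipid transporter gene Mfsd2a (0.90). For Tdo2 it was Hsd17b6 (0.96), for Hgd Slc29a1 (0.97), for Fah Scp2 (0.98), for Kmo Asrgl1 (0.96), for Haao the coagulation factor gene F10 (0.98) and for Aadat Cers2 (0.97). None of the 3 nearest genes of any of the 9 was itself one of the 9.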

How the data were processed

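Poly(A) RNA of 40 liver samples was sequenced with a stranded kit (15 cycles of PCR). The authors aligned reads to rn6 with STAR 2.7.1a and counted them per gene with HTSeq; the deposited values are raw counts of read pairs per gene, with no normalization. The lines of each file that name no gene held 32.8% to 45.4% of its total and were left out. The 2 nodules of each rat were summed. Tests used edgeR 4.0.16 in R 4.3.3 (filterByExpr, TMM, robust quasi-likelihood F test, two-sided, Benjamini-Hochberg over all genes tested). Only the groups of a comparison entered its fit. Intervals of fold changes are 95% intervals. DESeq2 1.42.0, RLE scaling, no filter, all 8 groups, H rats alone, a 2-fold limit with an adjusted p of at most 0.01, single nodules, each rat left out, the rat as a block and hepatocyte marker scaling were the alternatives.

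Nodules and NT liver were paired by the rat named in the labels; their deviations from the group means correlated at 0.368 to 0.543 over 11596 genes. Same-group libraries differed by more than counting noise (the smallest chi-square over its degrees of freedom was 13.4). The 9 genes and all lists were chosen with earlier results of these data known. Named genes are the 9 members, of each other list up to 4 called genes with the largest change in a comparison, and the 3 genes most like each member. Ido1 was named after its values were seen. Some genes that this rule names are not reported here. Promoters came from RefSeq (GRCr8), and all 9 genes matched.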

Additional observations from a re-analysis of the deposited data

Results flagged for a closer look

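In 5 of 72 groups of 4 rats tested, 1 rat stood far from the other 3 by Dixon's test at the 95% level, which chance alone gives in about 1 group in 20. Tat was at 540 CPM in the NT liver of rat F06 at 14 weeks, where the other 3 rats had 198 to 244 CPM, and at 1309 CPM in no DEN rat H14 at 20 weeks, where the others had 519 to 592 CPM. Fah was at 554 CPM in the NT liver of rat F10 at 8 weeks against 509 to 511 CPM, and at 643 CPM in no DEN rat H10 at 14 weeks against 565 to 576 CPM. Kmo was at 134 CPM in no DEN rat H11 at 14 weeks against 158 to 162 CPM.

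The effect of DEN on NT liver differed between 8 and 14 weeks by an interaction test for 4 genes, with differences in log2 fold change of -0.54 for Aadat, -0.39 for Fah, -0.34 for Hgd and -0.54 for Kynu. Each effect was further below 0 at 14 weeks, and none of the 4 passed when counts were scaled to the hepatocyte markers.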

How the results depend on the processing

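Over the 9 genes, 12 comparisons and all alternatives, 1667 of 1782 values kept their side of the threshold, 54 of them uncalled values that changed sign; 73 lost a call, 39 gained one and 3 called values changed sign. The 3 called values that changed sign did so when scaled to the hepatocyte markers: Hgd (0.16) and Fah (0.064) in the nodules at 14 weeks, and the growth of the DEN effect on Hgd from 8 to 14 weeks (0.042); this scaling moved the median of all genes to 0.67 and 0.43 in those comparisons, so a smaller fall changed sign by construction. With that scaling the genes called lower numbered 1 in NT liver at 14 and at 20 weeks, 2 and 4 in the nodules at 14 and 20 weeks, and 0 for the growth from 8 to 14 weeks, against 1.85%, 1.36%, 2.85%, 3.65% and 0.847% of all genes. With a 2-fold limit and an adjusted p of at most 0.01 they numbered 0, 1 and 0 in NT liver at 8, 14 and 20 weeks and 4 and 5 in the nodules. Over all genes, 67 of 10812, 231 of 11016 and 36 of 10827 were called lower in NT liver at this limit. In the nodules these were 508 of 11316 and 446 of 11199. Fewer genes can pass this limit by its construction. For nodules against NT liver at 20 weeks, 4 were called by DESeq2 and 4 with all 8 groups in one fit. Nodule 1 alone gave 2, and the rat as a block 4, against 0 without. Over all genes, these fits called 256 of 14151, 293 of 11596, 103 of 11130 and 630 of 11546 lower. At 14 weeks, the other comparison it was fitted to, the block called 0 as well. With H rats alone 7 genes passed for the growth from 8 to 14 weeks, against 518 of 11400 genes called lower. The causes were not tested.

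Leaving out 1 rat gave 1 to 3 calls in NT liver at 8 weeks (3 without H08, 2 without H17), 6 to 8 at 14 weeks and 1 to 4 at 20 weeks (1 without H26, 4 without H15). The share of all genes called lower in these fits was 3.53% to 9.15%, 8.82% to 11.6% and 3.25% to 4.92%. There were 8 to 9 calls in the nodules at 14 weeks and 9 at 20 weeks, against 12.6% to 15.7% and 13.3% to 17.5% of genes. Nodules against NT liver at 20 weeks gave 0 to 3 (3 without H25), against 0.0% to 1.64%. The growth from 8 to 14 weeks gave 2 to 6 (2 without H06, H09, H10, H21 or H22), against 2.87% to 9.2%.

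Over all genes, the stricter limit left 855, 1676 and 565 calls in NT liver at 8, 14 and 20 weeks and 2117 and 1946 in the nodules, against 2344, 3592, 1957, 4425 and 4347. Hepatocyte marker scaling gave 6329 in NT liver and 7096 in the nodules at 14 weeks. For nodules against NT liver at 20 weeks there were 0 calls, against 902 by DESeq2, 1096 with all groups in one fit, 182 with hepatocyte marker scaling, 218 from nodule 1, 445 without H25 and 1693 with the block, and at 14 weeks 35 by DESeq2 against 0. Between ages without DEN, DESeq2 called 20 and 18 genes, no filter 2 and 2, and the fit without H07 117 from 8 to 14 weeks, against 0. For the growth from 8 to 14 weeks there were 1005, against 1529 by DESeq2, 4019 with hepatocyte marker scaling and 533 to 1870 without 1 rat; for 14 to 20 weeks 83 in NT liver, against 381 by DESeq2, 182 with H rats alone, 223 with hepatocyte marker scaling and 31 to 408 without 1 rat, and 10 in nodules, against 29 by DESeq2, 5 from nodule 1, 12 from nodule 2 and 6 to 15 without 1 rat.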

Other observations

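Enzymes that break down other amino acids were called lower more often than higher. Of 26 tested, 3 were called lower at 8 weeks, 10 lower and 1 higher in NT liver at 14 weeks, and 7 lower at 20 weeks. In the nodules 16 were lower and 1 higher at 14 weeks, and 20 lower and 1 higher at 20 weeks, with a median log2 fold change of -0.83 in the last comparison. The share of all genes called lower was 5.21%, 9.85% and 3.82% in NT liver at 8, 14 and 20 weeks and 15.2% in the nodules at either time. Aass, the first enzyme of lysine breakdown, was at -1.94 ± 0.24 in the nodules at 20 weeks (edgeR adjusted p = 0.000194), histidine ammonia-lyase (Hal) at -1.45 ± 0.20 (adjusted p = 0.000387), and the alanine-glyoxylate aminotransferase Agxt at -1.56 ± 0.19 at 14 weeks (adjusted p = 0.000224). Cysteine dioxygenase (Cdo1) fell from 1239 ± 66.9 CPM in no DEN liver to 439 ± 184 CPM in the nodules at 14 weeks.

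Genes known to respond to glucocorticoids, the hormones that induce Tat and Tdo2, did not share one direction. Of 13 tested in the nodules at 14 weeks, 5 were called lower and 3 higher, and at 20 weeks 5 lower and 2 higher. The glucocorticoid receptor gene Nr3c1 was lower in the nodules at 14 weeks (-1.15 ± 0.11) and Pck1, the entry enzyme of gluconeogenesis, was lower at 14 weeks (-1.38), whereas the metallothionein gene Mt2A (3.50) and the cell cycle inhibitor gene Cdkn1a (1.90) were higher. Of 3 genes of NAD salvage tested, Nnmt, which methylates nicotinamide, was lower in the nodules at 20 weeks (-1.13 ± 0.09) and Nampt was higher (0.61 ± 0.20, edgeR adjusted p = 0.0254).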
